A study of Mus musculus with 6 samples.

Results

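This account follows 10 genes that encode feedback inhibitors of the ERK pathway, in mouse erythroleukaemic cells that carry an inducible short hairpin RNA (shRNA) against Spi1. They are the dual-specificity phosphatases Dusp1, Dusp2, Dusp4, Dusp5 and Dusp6, the Sproutys Spry1, Spry2 and Spry4, and the Spreds Spred1 and Spred2. They were chosen by name as members of these families, and no measured value entered the rule, though earlier results of these data were known. All 10 were among the 25628 gene symbols of the deposited count table, and 9 passed the filter on low counts that 14158 genes passed. Spry2 did not, with 1 to 3 counts in every library.

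Both groups were TgSpi1 cells, leukaemic erythroid cells from bone marrow that overexpress the transcription factor PU.1, the product of Spi1. All were kept in medium with erythropoietin (EPO), and all carried the inducible shRNA against Spi1. The Dox_Treated group had 3 cultures given doxycycline for 48 h, and the Dox_Untreated group had 3 cultures without it. The labels number the replicates 1 to 3 in each group, call them biological, and give every culture the same cell identifier, 722, so a single source of cells was studied. Doxycycline was given only together with the shRNA, and the actions of the drug itself and of the shRNA cannot be told apart.

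The ERK pathway carries signals from cytokine and growth factor receptors through RAS, RAF and MEK to the ERK kinases. ERK activity induces its own inhibitors: dual-specificity phosphatases strip both activating phosphates from MAP kinases, Sproutys block the step between receptor and RAS, and Spreds bring the RAS inactivator neurofibromin to the membrane. In erythroid cells the pathway acts downstream of the EPO and KIT receptors. Transcript levels of such inhibitors are widely used as a readout of pathway output, although phosphorylated ERK itself was not measured here.

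Total counts were 91277560 to 101276319 in the doxycycline libraries and 78926663 to 98103600 in the untreated libraries. Spi1 averaged 75.8 ± 12.0 CPM (counts scaled to library size) in the doxycycline libraries and 366 ± 43.8 CPM in the untreated libraries (SD, n = 3 each; log2 fold change -2.27, SE 0.17, edgeR adjusted p = 0.0030), so the targeted transcript went with the labels. All 12 erythroid markers examined were tested, among them Gata1, Klf1 and Alas2, and their summed level was 5228 to 7669 CPM with doxycycline and 4397 to 5864 CPM without. None of the 12 passed edgeR's test with the group as its only term. There 3 of them had an unadjusted p under 0.05, as did 2184 of all 14158 genes tested. With the replicate number as a block, 8 of the 12 were higher and 1 was lower with doxycycline. That fit called 10.3% of all genes higher and 15.6% lower. Monocyte and macrophage markers summed to 1.5 to 3.06 CPM with doxycycline and 6.17 to 12.3 CPM without, over 10 markers in the table, with C1qc and Ms4a7 at 3 counts or fewer in every library. Megakaryocyte markers summed to 39.1 to 159 CPM with doxycycline and 64.9 to 301 CPM without, over 8 markers. Mast cell markers summed to 8.97 to 51.6 CPM with doxycycline and 5.11 to 68.8 CPM without, over 6 markers, with Mcpt8 and Prss34 at that floor. Neutrophil granule markers summed to 0.318 to 11.7 CPM with doxycycline and 0.736 to 44.8 CPM without, over 12 markers, with Ly6g at it. B cell, T and NK cell, and stromal markers each summed to at most 0.894 CPM in every doxycycline library and at most 2.58 CPM in every untreated library, and Klrb1c, Pdgfra and Cxcl12 were at it. These sums cannot tell fewer cells of a type from less RNA per cell, and their part in the results below was not tested.

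Of the 9 members tested, none passed edgeR's quasi-likelihood test with the group as its only term, at an adjusted p under 0.05 over all genes. By DESeq2 with the same term none passed either. An unadjusted edgeR p under 0.05 was found for 1 member, Dusp1, and for 2184 of all 14158 genes tested. At the adjusted threshold edgeR's fit called 2.18% of all genes lower and 0.417% higher with doxycycline. Libraries with the same replicate number deviated together from their group means, and were taken as pairs. With the replicate number as a block, Dusp1 and Spry1 rose and Spred2 fell with doxycycline, while the other 6 did not pass. That fit called 15.6% of all genes lower and 10.3% higher, so 1 of 9 members lower and 2 of 9 higher lie near the background. DESeq2 with the block, which called 11.8% of all genes higher and 11.3% lower, also called Dusp1 and Spry1 higher but not Spred2 (log2 fold change -0.22, adjusted p = 0.196). The median log2 fold change of the 9 members was -0.10 without the block and -0.08 with it, against 0.01 and -0.00 over all genes tested. The fold changes of 7 members lay below 0, and for 5 of these, Dusp2, Dusp4, Dusp5, Spry4 and Spred1, the sign changed under at least 1 alternative.

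**Figure D1:**
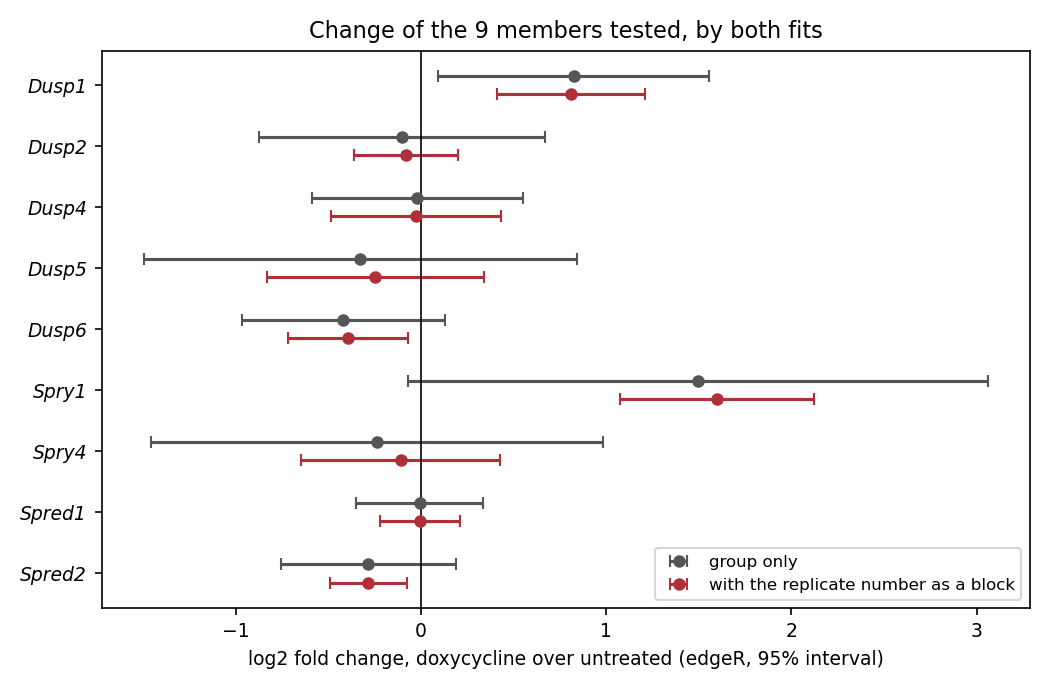
Log2 fold change of each tested member, doxycycline over untreated, with its 95% confidence interval, without and with the replicate number as a block in edgeR's fit. With the block the intervals were narrower, those of Dusp1 and Spry1 lay above 0, those of Dusp6 (-0.72 to -0.07) and Spred2 (-0.49 to -0.07) lay below 0, and the other 5 held 0. The interval is not adjusted over genes, and Dusp6 did not pass the adjusted test.

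Promoter sequences are shown for the 3 members called with the block, since Dusp1 is known as an immediate early gene whose promoter binds CREB family factors and PU.1 binds purine-rich ETS sites. RefSeq promoters (GRCm38.p6) matched 8 of the 10 members, and each window holds 200 bases, from 250 to 51 bases before the RefSeq start, 5′ to 3′ on the gene's strand. Capitals mark exact matches on either strand to the cyclic AMP response element TGACGTCA, its core TGACG, which the full element also contains, the AP-1 site TGANTCA, the purine-rich ETS motif GAGGAA and the CArG box bound by SRF. Dusp1 lies on the minus strand at chr17:26508523-26508722, Spry1 on the plus strand at chr3:37639697-37639896, and Spred2 on the plus strand at chr11:19924192-19924391.
Dusp1: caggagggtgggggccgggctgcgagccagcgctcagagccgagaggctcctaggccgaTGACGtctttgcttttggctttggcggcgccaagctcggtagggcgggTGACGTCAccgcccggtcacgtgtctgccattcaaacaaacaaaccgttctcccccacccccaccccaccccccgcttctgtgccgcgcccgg
Spry1: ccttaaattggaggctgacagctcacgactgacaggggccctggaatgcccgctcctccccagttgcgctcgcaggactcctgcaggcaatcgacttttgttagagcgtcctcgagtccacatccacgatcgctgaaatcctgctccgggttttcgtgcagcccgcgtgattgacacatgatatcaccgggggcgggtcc
Spred2: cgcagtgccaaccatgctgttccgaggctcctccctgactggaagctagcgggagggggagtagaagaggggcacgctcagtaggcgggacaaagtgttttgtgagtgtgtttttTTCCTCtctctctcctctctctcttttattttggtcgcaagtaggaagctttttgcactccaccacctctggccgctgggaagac

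The Dusp1 window held a full cyclic AMP response element whose first base stood at position -143, counted back from -1, the base before the start, a sequence found in 0.828% of 32851 windows of the same length. A further core began at -191, and 12.7% of windows held at least 1 core. Of the 8 members matched, Dusp1 was the only one with the full element. The Spred2 window held the purine-rich ETS motif once, on the opposite strand, as did those of Dusp5 and Dusp6, and 18.8% of all windows held it. The Spry1 window held none of the 5 motifs, and neither did those of Dusp2, Spry2 and Spred1. Dusp5, an ERK phosphatase known from other cells as a target of SRF and its ternary complex factors, had a pair of adjoining CArG boxes that began at -82 and -72, and a core at -55, while 1.16% of windows held any CArG box. The AP-1 site, in 5.57% of windows, was in none of the 8. These matches describe letters in the windows and not binding.

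Dusp1 encodes a nuclear phosphatase of p38, JNK and ERK that growth factors and stress induce within minutes. The gene (ENSMUSG00000024190.7, protein coding, chromosome 17 from 26505590 to 26562128 on the minus strand, GRCm38) stood at 1.4, 1.70 and 2.47 CPM in doxycycline replicates 1, 2 and 3, against 0.849, 1.02 and 1.27 CPM in the untreated replicates. Every doxycycline library lay above every untreated one, while the groups overlapped for the other 8 members tested. Over all genes tested 20.6% had groups that did not overlap in either direction. The group means were 1.86 ± 0.550 CPM with doxycycline and 1.05 ± 0.213 CPM without (SD, n = 3 each). The log2 fold change was 0.82 (SE 0.31, 95% interval 0.09 to 1.56, edgeR adjusted p = 0.263) without the block and 0.81 (SE 0.18, 0.41 to 1.21, adjusted p = 0.00833) with it, a 1.75-fold rise (1.33 to 2.31). Within the replicate numbers 1, 2 and 3 the log2 ratios of doxycycline to untreated were 0.73, 0.73 and 0.96. These values rest on 128, 165 and 246 deposited counts with doxycycline and 75, 80 and 126 without. Without both libraries of number 1 the blocked call was lost (log2 fold change 0.86, edgeR adjusted p = 0.0916). It was made in the other 8 blocked fits, which include the one just given and some chosen after the data were seen. The exons of Dusp1 share 11 bases with Ergic1 on the other strand, and the libraries were not stranded, so reads there cannot be assigned to either gene. Ergic1 itself stood at 95.4, 86.5 and 47.1 CPM with doxycycline and 115, 110 and 47.3 CPM without, and was thus lowest in number 3, where Dusp1 was highest.

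Dusp2, Dusp4 and Dusp5 encode the other nuclear phosphatases of the set, and none of them passed the test between the groups in either fit. Dusp2 (ENSMUSG00000027368.6, chromosome 2 from 127336159 to 127338376, plus strand), known from activated blood cells, had 10.2, 10.2 and 6.05 CPM with doxycycline, against 12.4, 10.1 and 5.95 CPM without. Both groups were lowest in replicate number 3 and overlapped throughout. Its log2 fold change was -0.10 (95% interval -0.88 to 0.67, edgeR adjusted p = 0.933), and the block narrowed the interval to -0.36 to 0.20. Dusp4 (ENSMUSG00000031530.6, chromosome 8 from 34807297 to 34819894, plus strand), an inducible nuclear relative of Dusp1, had 0.768, 0.935 and 0.773 CPM with doxycycline, against 0.827, 0.803 and 0.879 CPM without. These are 63 to 91 counts per library, and the values interleave. The 95% interval of its log2 fold change, -0.59 to 0.55, leaves room for changes of either sign.

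Dusp5 (ENSMUSG00000034765.6, chromosome 19 from 53529109 to 53542431, plus strand) encodes a nuclear phosphatase that acts on ERK and not on p38 or JNK. It had 0.592, 0.503 and 0.321 CPM with doxycycline, against 0.849, 0.701 and 0.232 CPM without. In both groups number 3 was lowest, and only there was the doxycycline library the higher of the pair. The log2 fold change was -0.33 (SE 0.50, 95% interval -1.5 to 0.84, edgeR adjusted p = 0.846), with 23 to 75 counts per library behind it. An antisense gene, AC137853.2, covers 22.1% of the Dusp5 exon bases and is not a row of the count table, so part of the Dusp5 reads may belong to it.

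Dusp6 encodes the cytoplasmic phosphatase that acts on ERK, and its transcript is often used as a readout of ERK activity. The gene (ENSMUSG00000019960.8, chromosome 10 from 99263231 to 99267489, plus strand) had 9.60, 7.74 and 8.48 CPM with doxycycline, against 14.3, 11.7 and 8.49 CPM without. The doxycycline library was the lower of the pair in numbers 1 and 2, with log2 ratios of -0.57 and -0.60, and the pair of number 3 was level at -0.00. The group means were 8.61 ± 0.938 CPM with doxycycline and 11.5 ± 2.91 CPM without (SD, n = 3 each). Neither the fit without the block (log2 fold change -0.42, SE 0.23, edgeR adjusted p = 0.477) nor the fit with it (-0.39, SE 0.15, 95% interval -0.72 to -0.07, adjusted p = 0.0741) passed. Without both libraries of number 3, the level pair, Dusp6 did pass edgeR's test with the block, at -0.58 (adjusted p = 4.72e-05). That smaller fit called 2677 of 14212 genes lower and 2071 higher, more than the blocked fit of all libraries. The pair it left out was the one without a fall, so its call adds no separate evidence of a fall in Dusp6.

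**Figure D2:**
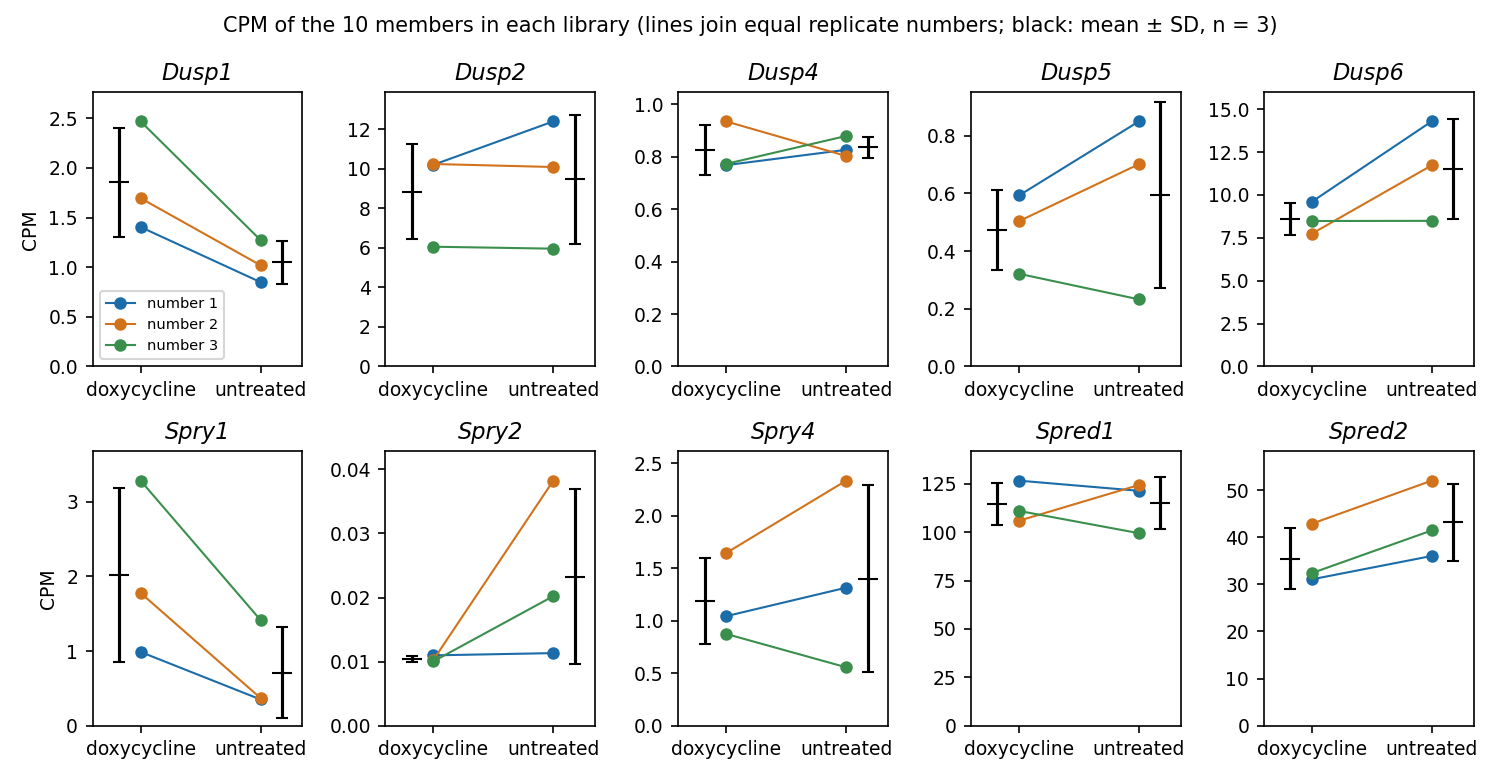
CPM of the 10 members in each of the 6 libraries, doxycycline left of untreated in each panel, with lines joining libraries of the same replicate number, black bars at the mean ± SD, and each vertical axis starting at 0. Dusp1 and Spry1 lay higher with doxycycline in each number, Spred2 lay lower in each number, and Spry2 had 1 to 3 counts in every library.

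Sproutys are membrane-associated inhibitors that receptor tyrosine kinase signalling induces. Spry1 (ENSMUSG00000037211.12, chromosome 3 from 37639947 to 37644598, plus strand) had 0.987, 1.78 and 3.28 CPM with doxycycline, against 0.351, 0.370 and 1.42 CPM without. Within each number the doxycycline library was the higher, with log2 ratios of 1.49, 2.27 and 1.21, but untreated replicate 3 exceeded doxycycline replicate 1, so the groups overlapped. The means were 2.02 ± 1.17 CPM with doxycycline and 0.712 ± 0.609 CPM without (SD, n = 3 each). The log2 fold change was 1.49 (SE 0.67, 95% interval -0.07 to 3.06, edgeR adjusted p = 0.352) without the block and 1.60 (SE 0.23, 1.08 to 2.12, adjusted p = 7.91e-04) with it, a 3.03-fold rise (2.11 to 4.36). That rise was called in all 9 blocked fits, with log2 fold changes of 1.33 to 1.90. These include the fit just given and some chosen after the data were seen. Without the block the value moved most with replicate 3 of each group: leaving out untreated replicate 3 gave 2.48 (adjusted p = 0.104) and leaving out doxycycline replicate 3 gave 0.95 (adjusted p = 0.634).

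The counts behind Spry1 were 90, 173 and 327 with doxycycline and 31, 29 and 140 without. Summed erythroid markers were also highest in number 3 of each group, at 7669 CPM with doxycycline and 5864 CPM without, and their part in the Spry1 values was not tested. An unconfirmed antisense locus, Gm42922, covers 24.4% of the Spry1 exon bases and had 3, 5 and 8 counts with doxycycline and 1, 1 and 4 without. Since strand was not marked, some reads of this locus and of Spry1 cannot be told apart.

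Spry2 (ENSMUSG00000022114.5, chromosome 14 from 105891947 to 105896819, minus strand), a well studied Sprouty inhibitor of FGF receptor signalling, had 1, 1 and 1 deposited counts with doxycycline and 1, 3 and 2 without. These values are at or under the floor of 3 counts, 0.0301 to 0.0382 CPM, and no fold is given. Spry4 (ENSMUSG00000024427.7, chromosome 18 from 38586247 to 38601415, minus strand) had 1.04, 1.64 and 0.873 CPM with doxycycline, against 1.31, 2.33 and 0.556 CPM without. Number 2 was highest and number 3 lowest in both groups. Its log2 fold change was -0.24 (SE 0.52, 95% interval -1.46 to 0.98, edgeR adjusted p = 0.900), and with the block the interval was -0.64 to 0.43.

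Spreds were the most abundant members. Spred1 (ENSMUSG00000027351.14, chromosome 2 from 117121374 to 117182279, plus strand), the family member mutated in Legius syndrome, had 127, 106 and 111 CPM with doxycycline, against 121, 124 and 99.5 CPM without. The groups overlapped, and the log2 fold change was -0.01 (SE 0.15, 95% interval -0.35 to 0.34, edgeR adjusted p = 0.990). With the block the interval was -0.22 to 0.21, the narrowest of the set apart from that of Spred2. Spred2 (ENSMUSG00000045671.17, chromosome 11 from 19924375 to 20024026, plus strand), known in mice as a negative regulator of early blood formation, had 31.1, 42.9 and 32.4 CPM with doxycycline, against 36.0, 52.0 and 41.4 CPM without. The doxycycline library was the lower in each number, with log2 ratios of -0.21, -0.28 and -0.36, while the group ranges overlapped. The log2 fold change was -0.28 (SE 0.20, 95% interval -0.76 to 0.19, edgeR adjusted p = 0.60) without the block and -0.28 (SE 0.09, -0.49 to -0.07, adjusted p = 0.0495) with it, or 0.822 times the untreated level. This call sits at the threshold. Of 9 blocked fits it was made in 2, the fit just given and that with 1 taken off each value, chosen after the data were seen. Over the 9 the adjusted p ran up to 0.201.

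Set per kilobase of annotated exon, the members fell into an order that spanned from Spred1 to Spry2. Mean levels over the 6 libraries were 16.9 CPM per kilobase for Spred1, 8.51 for Spred2, 4.57 for Dusp2 and 3.21 for Dusp6, and these 4 made up 48.5%, 24.4%, 13.1% and 9.19% of the members' sum. Dusp2 stood above Dusp6 in 6 of 6 libraries, but their ranges overlapped. Spry1 at 0.469, Dusp1 at 0.439, Dusp4 at 0.303, Spry4 at 0.272 and Dusp5 at 0.216 CPM per kilobase were neighbours with overlapping ranges, and Spry1 lay above Dusp1 in 3 of 6 libraries. Ranges did not overlap between Spred1 and Spred2, Spred2 and Dusp2, Dusp6 and Spry1, and Dusp5 and Spry2. The lengths are those of GENCODE M21 (GRCm38). The annotation behind the deposited counts is not given in the sources used here, and the long M21 span of Dusp1 makes its length the least certain.

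**Figure D3:**
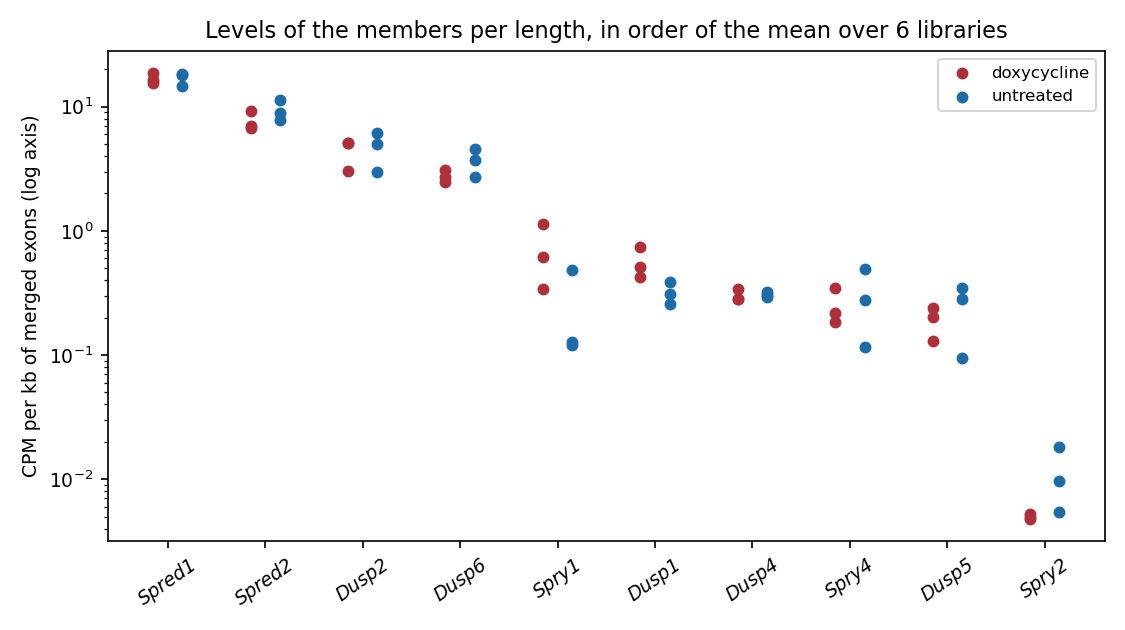
CPM per kilobase of annotated exon of the 10 members in the doxycycline and untreated libraries, on a log axis, ordered by the mean of all 6 libraries. Spred1 and Spred2 stand above Dusp2 and Dusp6, then 5 genes lie close together, and Spry2 is at the floor.

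The members also differed by replicate number, whichever the treatment. In the blocked fit, 5 of 9 members differed between the numbers by edgeR's test at an adjusted p under 0.05, against 43.3% of all genes, a share near the background. They were Spry1, highest in number 3 (adjusted p = 0.00154), Dusp2, lowest in number 3 (0.00342), Spry4, highest in number 2 (0.00931), Spred2, highest in number 2 (0.0142), and Dusp5, lowest in number 3 (0.0200). Summed megakaryocyte markers were also lowest in number 3, at 159, 120 and 39.1 CPM in doxycycline replicates 1, 2 and 3 and 301, 211 and 64.9 CPM in the untreated ones, and mast cell markers likewise. The part of these cell type markers in the levels of Dusp2 and Dusp5 was not tested.

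Among related phosphatases and Spreds outside the set, 1 of 6 tested rose and none fell without the block. With it, 2 rose and 2 fell. The shares of all genes were 0.417% higher and 2.18% lower without the block, and 10.3% higher and 15.6% lower with it. The 6 had a median log2 fold change of 0.20 without the block and 0.18 with it. Dusp8, a phosphatase of JNK and p38, averaged 4.14 ± 1.22 CPM with doxycycline and 0.969 ± 0.385 CPM without (SD, n = 3 each; log2 fold change 2.09, SE 0.37, edgeR adjusted p = 0.0341), and was higher in every number. Leaving out single libraries without the block, 1 of these related genes was called higher without untreated replicate 3, and none without any other library. Dusp9, an ERK phosphatase, averaged 2.48 ± 0.669 CPM with doxycycline and 1.18 ± 0.304 CPM without, and rose only with the block (1.07, SE 0.17, adjusted p = 0.00122, against 0.167 without). Dusp10, which acts on p38 and JNK, averaged 8.93 ± 0.570 CPM with doxycycline and 15.4 ± 1.07 CPM without, and fell only with the block (-0.79, SE 0.11, adjusted p = 6.98e-04, against 0.0543 without).

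Upstream of these inhibitors, receptors, adaptors and RAS regulators held several genes that fell with the block. The lists are described by their counts and medians, to be read against the shares of all genes given above. Of 11 receptors tested, 4 fell and 1 rose with the block and none passed without it, with a median log2 fold change of -0.56 in the blocked fit. The 1 that rose was Epor, the EPO receptor. It averaged 110 ± 29.4 CPM with doxycycline and 81.0 ± 17.1 CPM without (log2 fold change 0.43, SE 0.09, edgeR adjusted p = 0.00764 with the block, 0.445 without). Csf2rb, the beta chain shared by the IL-3, IL-5 and GM-CSF receptors, averaged 7.31 ± 4.92 CPM with doxycycline and 33.9 ± 24.9 CPM without (log2 fold change -2.20, SE 0.12, edgeR adjusted p = 2.12e-06 with the block, 0.190 without). Its near-identical neighbour Csf2rb2, the IL-3 specific chain, fell with the block as well (-1.85, SE 0.22, adjusted p = 1.88e-04), and how reads were split between the pair is uncertain. Igf1r, the IGF-1 receptor, fell by 0.60 on that scale with the block (adjusted p = 0.00728). Of 14 adaptors and exchange factors, 5 fell and 1 rose with the block, and 1 fell without it, with a blocked median of -0.06. That gene was Rasgrp4, a RAS exchange factor known from mast cells and myeloid precursors, at 0.0553 ± 0.0147 CPM with doxycycline and 0.979 ± 0.254 CPM without (SD, n = 3 each; -4.11, SE 0.38, adjusted p = 0.00582). Rasgrp4 had 4, 7 and 5 counts with doxycycline, near the floor of 3, and 86, 97 and 72 without, so the size of its fold is uncertain. Monocyte and macrophage markers, summed above, were lower with doxycycline as well. Mast cell markers were lower with doxycycline in numbers 1 and 2 but higher in number 3, at 8.97 against 5.11 CPM. The part of either marker group in the Rasgrp4 values was not tested. Dok2, an adaptor that restrains RAS signalling in blood cells, averaged 18.4 ± 10.7 CPM with doxycycline and 50.7 ± 21.0 CPM without (-1.60, SE 0.17, adjusted p = 1.08e-04 with the block, 0.261 without). Rasgrp2, an exchange factor best known in platelets, fell with the block (-1.27, SE 0.12, adjusted p = 5.94e-05, against 0.404 without). It had 7.5, 7.01 and 1.94 CPM with doxycycline and 17.2, 16.8 and 5.01 CPM without. Summed megakaryocyte and platelet markers were likewise lower with doxycycline in each number and lowest in number 3. Of the 7 tested, 4 fell and 1 rose with the block, in a fit that called 15.6% of all genes lower and 10.3% higher. Their part in the Rasgrp2 values was not tested.

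RAS proteins and RAS GTPase activators did not rise in either fit, and 5 of 13 fell with the block, beside 15.6% of all genes. Their blocked median was -0.19. Rasal3, a RAS GTPase activator of blood cells, averaged 14.3 ± 7.88 CPM with doxycycline and 45.3 ± 23.3 CPM without (log2 fold change -1.69, SE 0.10, edgeR adjusted p = 2.87e-06 with the block, 0.203 without). The activator Rasa3 also fell with the block (-0.45, SE 0.09, adjusted p = 0.00422). Nf1, which encodes the neurofibromin that Spreds recruit, averaged 21.0 ± 7.02 CPM with doxycycline and 25.5 ± 7.17 CPM without, and passed in neither fit (adjusted p = 0.758, and 0.0604 with the block). Of 13 RAF, MEK, ERK, scaffold and RSK genes, 4 fell with the block and none rose, beside 15.6% and 10.3% of all genes. Their blocked median was -0.09. Iqgap1, a scaffold that binds ERK and MEK, averaged 41.1 ± 18.7 CPM with doxycycline and 118 ± 32.5 CPM without (-1.57, SE 0.13, adjusted p = 2.23e-05 with the block, 0.0752 without). Ksr1, a scaffold of RAF and MEK (-1.03, SE 0.12, adjusted p = 2.37e-04), and Rps6ka1, the ERK-activated kinase RSK1 (-0.84, SE 0.10, adjusted p = 2.47e-04), fell with the block too. Mapk3, which encodes an ERK kinase, did not pass in either fit and averaged 24.8 ± 1.47 CPM with doxycycline and 29.0 ± 6.30 CPM without (-0.23, 95% interval -0.67 to 0.21, adjusted p = 0.666).

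Of 19 other transcripts known to be induced by ERK and tested, 1 rose and none fell without the block. With it, 4 fell and 1 rose. The shares of all genes were 0.417% higher and 2.18% lower without the block, and 10.3% higher and 15.6% lower with it. Klf10, an early response gene of TGF-beta and growth factors, averaged 26.2 ± 0.862 CPM with doxycycline and 16.0 ± 0.578 CPM without (SD, n = 3 each; log2 fold change 0.71, SE 0.14, edgeR adjusted p = 0.0457). Without the block, the Klf10 call was not made with no low-count filter, nor with any single library left out. Ier3, an immediate early gene, averaged 4.18 ± 1.16 CPM with doxycycline and 8.48 ± 1.77 CPM without (-1.04, SE 0.14, adjusted p = 4.68e-04 with the block, 0.135 without). Plaur, the urokinase receptor, fell with the block (-1.72, SE 0.42, adjusted p = 0.0136) at means of 0.0561 ± 0.0188 CPM with doxycycline and 0.190 ± 0.0794 CPM without. Its counts were 7, 5 and 4 with doxycycline, near the floor of 3, and 14, 22 and 13 without, so its fold is uncertain. The median log2 fold change of the 19 was -0.15 in either fit.

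Of 9 genes whose products act on Sprouty proteins, 3 rose and 2 fell with the block and none passed without it. The blocked fit called 10.3% of all genes higher and 15.6% lower. The 9 had a blocked median log2 fold change of 0.11. Cbl, a ubiquitin ligase that Sproutys bind, averaged 68.6 ± 24.8 CPM with doxycycline and 156 ± 46.5 CPM without (log2 fold change -1.20, SE 0.09, edgeR adjusted p = 1.35e-05 with the block, 0.107 without). Siah1a, a ubiquitin ligase that degrades Sproutys, averaged 18.3 ± 3.27 CPM with doxycycline and 11.2 ± 1.24 CPM without (0.70, SE 0.12, adjusted p = 0.00199 with the block, 0.128 without). Siah2, its relative, averaged 17.3 ± 1.05 CPM with doxycycline and 11.8 ± 1.22 CPM without (0.56, SE 0.12, adjusted p = 0.00713 with the block, 0.145 without).

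**Figure D4:**
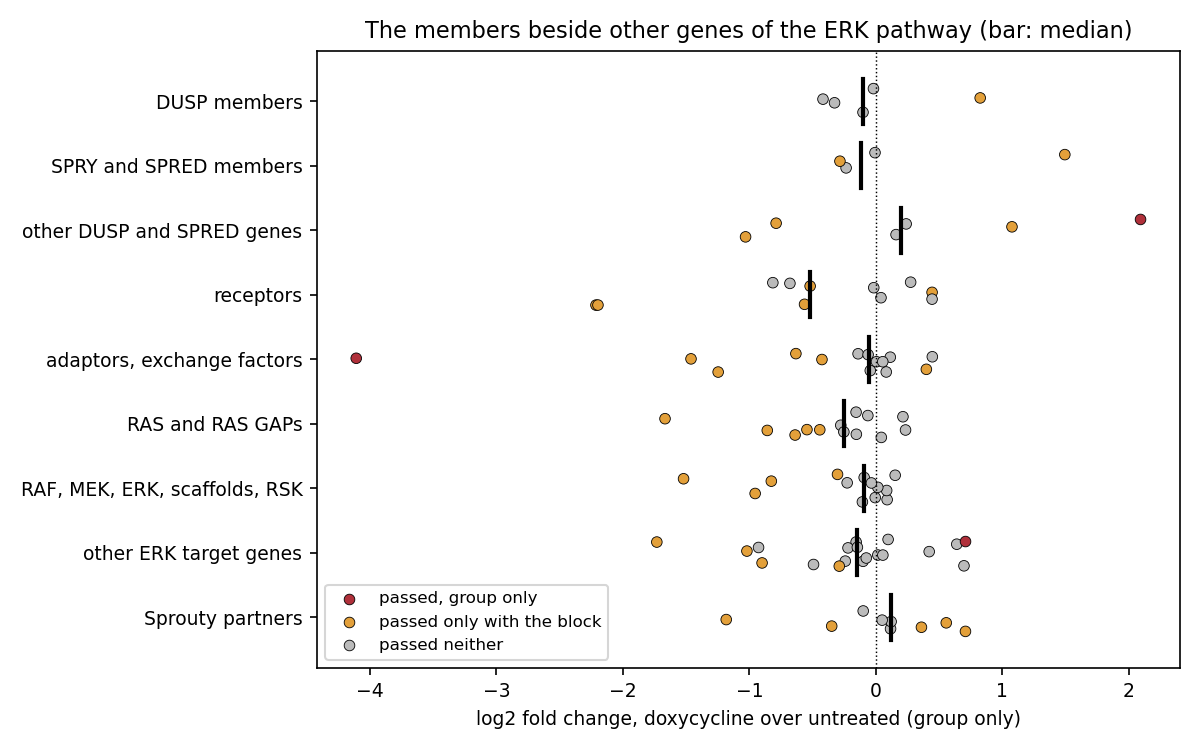
Log2 fold change, doxycycline over untreated in the fit without the block, of every tested gene of the members and the pathway lists, 1 point per gene and 1 row per list, with a bar at each median. Colours show the genes that passed without the block, with the block only, or in neither fit, and the 9 members lie between -0.42 and 1.49.

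The genes whose levels followed Dusp1 most closely over the 6 libraries, among all tested, were Mettl3, which encodes the catalytic subunit of the mRNA N6-adenosine methyltransferase (Pearson r = 0.994 on log2 CPM), Gm10110 (0.993), Tspan33, a tetraspanin known from erythroid precursors (0.992), Abcb4 (0.992) and Rec8, a meiotic cohesin subunit (0.991). The 6 libraries share their pairing by number and their treatment, so these values describe likeness only.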

How the data were processed

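Poly(A) RNA was prepared with the Illumina TruSeq RNA v2 kit, per the labels' protocols, which does not mark strand. The authors deposited raw read counts per gene symbol. The submitters' processing notes name bcl2fastq 2.17.1.14, STAR and DESeq2, and the builds mm10 and GRCm38. Neither the counting program nor its annotation is given in the sources used here. The smallest deposited count in every library was 1, so 1 appears to have been added to each value.

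Counts were tested as deposited with edgeR 4.0.16 (limma 3.58.1, R 4.3.3): TMM factors, filterByExpr, two-sided quasi-likelihood F test on group, Benjamini-Hochberg adjustment over the 14158 genes kept, threshold 0.05. Log2 fold changes are doxycycline over untreated, and CPM values are TMM-scaled. Alternatives were the replicate number as a block, DESeq2 1.42.0, other scalings and filters, 1 taken off each value, and leaving out libraries. The labels do not say what a replicate number stands for. Deviations from group means of same-numbered libraries correlated at 0.769, 0.742 and 0.723 over genes, so the numbers were taken to pair them. The scripts were tested on simulated data.

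The members and lists were chosen with earlier results of these data known. Named outside the members were Spi1, up to 3 genes per list by smallest adjusted p, Mapk3, Nf1, and Epor as the 1 receptor that rose. Also named were the 5 genes most like Dusp1, the member with the smallest adjusted p without the block. With the block the smallest was that of Spry1. Some genes that this rule names are not reported here. Positions are from GENCODE M21, and sequences from RefSeq (GRCm38.p6). P-values measure the spread between these cultures of 1 cell source. Those with the block measure only the spread left once differences between the replicate numbers are taken out.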

Additional observations from a re-analysis of the deposited data

How the results depend on the processing

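Without the block, no member passed in any of the 12 alternatives tried. With it, 1 member was lower and 2 were higher, against 2206 genes lower and 1452 higher in all. DESeq2 gave 636 genes lower and 294 higher, and DESeq2 with the replicate block gave 2 members higher, with 1660 genes lower and 1736 higher. Leaving out 1 library at a time gave 35 to 242 genes lower and 0 to 26 higher. Blocked fits without replicate number 1, 2 or 3 gave 880, 2119 and 2677 genes lower, 368, 1310 and 2071 higher, 1, 2 and 2 members higher, and 0, 0 and 1 lower. Blocked fits chosen after the data were seen, with RLE factors, upper quartile factors, at least 1 CPM in 3 libraries, or 1 taken off each value, each gave 2 members higher, and only the last gave 1 lower. How many of all genes these fits called was not counted, so these member counts have no background beside them. The cause of these shifts was not tested.

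The direction of Dusp1, Dusp6, Spry1 and Spred2 held in every alternative run, while 5 members near 0 changed sign in some. The log2 fold change of Dusp4 was 0.044 by DESeq2, 0.042 by DESeq2 with the block, 0.017 with upper quartile factors and 0.015 with those and the block. That of Spred1 was 0.062 by DESeq2 without and with the block, 0.014 with RLE factors, 0.036 with upper quartile factors, 0.016 and 0.036 with these and the block, and 0.0023 with the stricter filter and the block. Leaving out single libraries moved Dusp2 between -0.35 and 0.16, Dusp4 between -0.12 and 0.034, Dusp5 between -0.72 and 0.054, Spry4 between -0.62 and 0.34, and Spred1 between -0.10 and 0.057. Blocked fits turned the sign without number 1 for Dusp2 (0.038), Dusp4 (0.030) and Spry4 (0.035), without number 2 for Spry4 (0.134) and Spred1 (0.114), and without number 3 for Dusp4 (0.061). Counts per library were lowest for Spry2, at 1 to 3, which was not tested.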

Other observations

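The stress-activated MAP kinases that Dusp1, Dusp8 and Dusp10 also act on were examined as a further group. Of 13 p38, JNK and ERK5 pathway genes tested, 1 fell and none rose without the block. With it, 3 fell and 1 rose. The shares of all genes were 2.18% lower and 0.417% higher without the block, and 15.6% lower and 10.3% higher with it. The 13 had a median log2 fold change of -0.12. Mapkapk3, a kinase activated by p38, averaged 40.5 ± 1.89 CPM with doxycycline and 74.6 ± 9.92 CPM without (SD, n = 3 each; log2 fold change -0.88, SE 0.15, edgeR adjusted p = 0.0294). When single libraries were left out without the block, 1 gene of this group was called lower without untreated replicate 3, and none without any other library. Map3k5, the stress kinase ASK1, averaged 8.49 ± 2.36 CPM with doxycycline and 13.5 ± 3.27 CPM without (-0.67, SE 0.12, edgeR adjusted p = 0.00207 with the block, 0.301 without). Mapk11, p38 beta, averaged 0.527 ± 0.244 CPM with doxycycline and 1.05 ± 0.367 CPM without (-1.03, SE 0.22, adjusted p = 0.00635 with the block, 0.382 without).

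Of 10 SRF, ternary complex, CREB and FOXO factor genes tested, 3 fell and 2 rose with the block and none passed without it. The blocked fit called 15.6% of all genes lower and 10.3% higher. Mrtfa, an SRF coactivator, averaged 8.12 ± 2.0 CPM with doxycycline and 15.2 ± 2.63 CPM without (log2 fold change -0.91, SE 0.13, edgeR adjusted p = 6.37e-04 with the block, 0.116 without). Elk3, a ternary complex factor, averaged 4.48 ± 2.40 CPM with doxycycline and 6.62 ± 2.16 CPM without (-0.67, SE 0.17, adjusted p = 0.0173 with the block, 0.675 without). Foxo3, a forkhead factor that acts in erythroid maturation, averaged 108 ± 27.4 CPM with doxycycline and 84.7 ± 20.2 CPM without (0.35, SE 0.08, adjusted p = 0.0126 with the block, 0.604 without).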
